A study of Mus musculus with 96 samples.

Results

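The genes described here were 10 genes of cell-cell adhesion, measured in single mouse embryonic stem cells (ES cells) and single mouse embryonic fibroblasts (MEFs). They comprised the cadherins Cdh1, Cdh2, Cdh3 and Cdh11, the catenins Ctnna1, Ctnnb1, Ctnnd1 and Jup, the epithelial adhesion molecule Epcam and the claudin Cldn6. They were chosen by gene symbol, and all 10 were found among the 21711 gene rows of the expression table. The method was single-cell tagged reverse transcription (STRT), in which every well receives its own barcode as cDNA is made, and strand-specific reads start at transcript 5′ ends. One plate of 96 wells, no 2 of which share a barcode, was made into 1 library and held 48 ES cells of the R1 line, 44 MEFs and 4 negative control wells.

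The MEFs were cultured in DMEM that contained 10% FBS, penicillin/streptomycin, Glutamax and 0.05 mM 2-mercaptoethanol, while the ES cell medium is given only by citation. No transgene, knockout or treatment is listed for either cell type, and the labels name no age, strain or separate cultures. The source cell line field reads R1 for the fibroblast wells as well, against their cell type, so the cell type label decided the group. ES cells filled one side of the plate and the MEFs and controls the other, so plate side and cell type cannot be told apart. With 1 culture assumed for each type, single cells are not replicates of it, and no p-value was computed.

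Classical cadherins are calcium-dependent transmembrane proteins that join neighbouring cells by binding cadherins on the facing membrane. Inside the cell their tails bind β-catenin or γ-catenin (plakoglobin), which recruit α-catenin and through it the actin cytoskeleton, while p120 catenin binds the membrane-proximal tail and keeps the cadherin at the surface. E-cadherin is the typical cadherin of epithelia and of mouse ES cell colonies, whereas N-cadherin and cadherin-11 are typical of mesenchymal cells such as fibroblasts, and the exchange of one for the others is the usual readout of an epithelial to mesenchymal transition.

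Wells with at least 10000 gene reads were used, which kept 45 of 48 ES cells and 44 of 44 MEFs. Gene reads per kept ES cell ran from 13576 to 703423 with a median of 161206, and per MEF from 63938 to 1883709 with a median of 851801. Levels are given as counts-per-million of gene reads (CPM), pooled over the cells of a type or per cell, and ratios are log2 of pooled ES cell CPM over pooled MEF CPM. The median of 12818 measured genes, those with at least 20 reads over both types, had a log2 ratio of −1.48, so each ratio is also given relative to that gene. Intervals are exact at the 95% level (Poisson for CPM, Clopper-Pearson for shares) and cover counting error at most. Copies of 1 molecule were counted separately without molecular identifiers, so intervals on reads are too narrow for the error in counting molecules. The spread over the 8 plate rows, each holding different cells of both types, is given as an SD. It holds no variation between cultures.

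Both labels were checked against markers. The 6 ES cell markers (Pou5f1, Sox2, Nanog, Zfp42, Dppa5a and Tdh) summed to 7362 CPM in ES cells and 27.1 CPM in MEFs, and all 6 favoured ES cells by 2-fold or more. The 7 fibroblast markers, with Col1a1 and Col1a2 among them, summed to 459 CPM in ES cells and 8849 CPM in MEFs, and all 7 favoured MEFs by 2-fold or more. Per cell, the fibroblast sum ranged from 0 to 8119 CPM (median 256) in ES cells and from 1229 to 22118 CPM (median 8376) in MEFs, so the groups overlapped. ES cell replicates 4, 7 and 30 had the highest fibroblast sums among ES cells, at 8119, 5464 and 3904 CPM, beside ES marker sums of 1090, 2390 and 4729 CPM. Results that rest on them are given with and without them. Of other cell types, 6 endothelial markers summed to 1.26 CPM in ES cells and 8.02 CPM in MEFs, with Cdh5, Pecam1 and Tie1 at 0 in both, and 8 markers of epidermis and simple epithelium to 6.88 CPM in ES cells and 29.2 CPM in MEFs. The 6 macrophage and blood markers summed to 0.229 CPM in ES cells and 2.79 CPM in MEFs, and the 6 neural markers to 427 CPM in ES cells, of which Stmn2 made 371, and 513 CPM in MEFs. Their part in the results was not tested.

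Promoter sequences were taken from RefSeq on GRCm38.p6 for 5 of the 10 genes, which gave 7 windows, as Ctnnb1 and Ctnnd1 each have 2 listed starts. Those of Cdh1, Cdh2, Cdh3, Cdh11 and Ctnna1 were not used here. The 250 bases before the RefSeq start are shown for Epcam and Cldn6, because both genes were far higher in ES cells. Capitals mark CACCTG or CAGGTG, the form of E-box that SNAIL and ZEB repressors are known to bind, searched on both strands (each word is the reverse complement of the other). The Epcam window is chr17:87635729-87635978 (+) and the Cldn6 window chr17:23679115-23679364 (+).
Epcam: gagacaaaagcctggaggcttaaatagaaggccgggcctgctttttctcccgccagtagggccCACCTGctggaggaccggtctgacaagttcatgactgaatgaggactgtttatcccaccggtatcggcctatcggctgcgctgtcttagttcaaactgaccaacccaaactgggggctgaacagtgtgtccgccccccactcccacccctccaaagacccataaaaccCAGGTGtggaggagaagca
Cldn6: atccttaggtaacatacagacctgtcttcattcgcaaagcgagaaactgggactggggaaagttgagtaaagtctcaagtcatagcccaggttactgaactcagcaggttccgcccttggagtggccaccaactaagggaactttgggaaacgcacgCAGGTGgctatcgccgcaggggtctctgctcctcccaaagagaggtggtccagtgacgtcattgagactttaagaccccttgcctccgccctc
The Epcam window held 2 such E-boxes, whose first bases lay 187 and 19 bases before the start, and the Cldn6 window held 1, at 93 bases before it. The windows of Ctnnb1, Ctnnd1 and Jup held none. Of 32851 RefSeq promoters of the same length, 17.2% held at least 1 match and 2.06% held 2 or more. ACCGGT, its own reverse complement and a core word of the Grainyhead-like factors of epithelia, was found 2 times in the Epcam window, at 174 and 131 bases before the start, once in 1 of the 2 Ctnnb1 windows and in 1.86% of all promoters. Neither word overlapped the other there. These matches describe letters and not bound sites.

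Of the 10 genes, 3 reached a 2-fold higher level in ES cells (Cdh1, Epcam and Cldn6), a size reached in that direction by 15.4% of measured genes, and these 3 held under each scaling tried. In MEFs 6 reached that size (Cdh2, Cdh3, Cdh11, Ctnna1, Ctnnb1 and Jup), where the share of all measured genes was 58.5%, so this count stands near the background. Relative to the median gene, 3 genes were higher in ES cells and 2 (Cdh2 and Cdh11) in MEFs, beside 33% and 33.3% of all measured genes in those directions. Without ES cell replicates 4, 7 and 30 the counts by CPM were 3 in ES cells and 7 in MEFs, the added gene being Ctnnd1. Scaled by spike-in reads, the median gene stood at −6.04 and Cdh1, Epcam and Cldn6 at log2 ratios of 4.29, 3.77 and 4.07. With 10 CPM added to both types these were 3.91, 3.73 and 2.13.

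**Figure D1:**
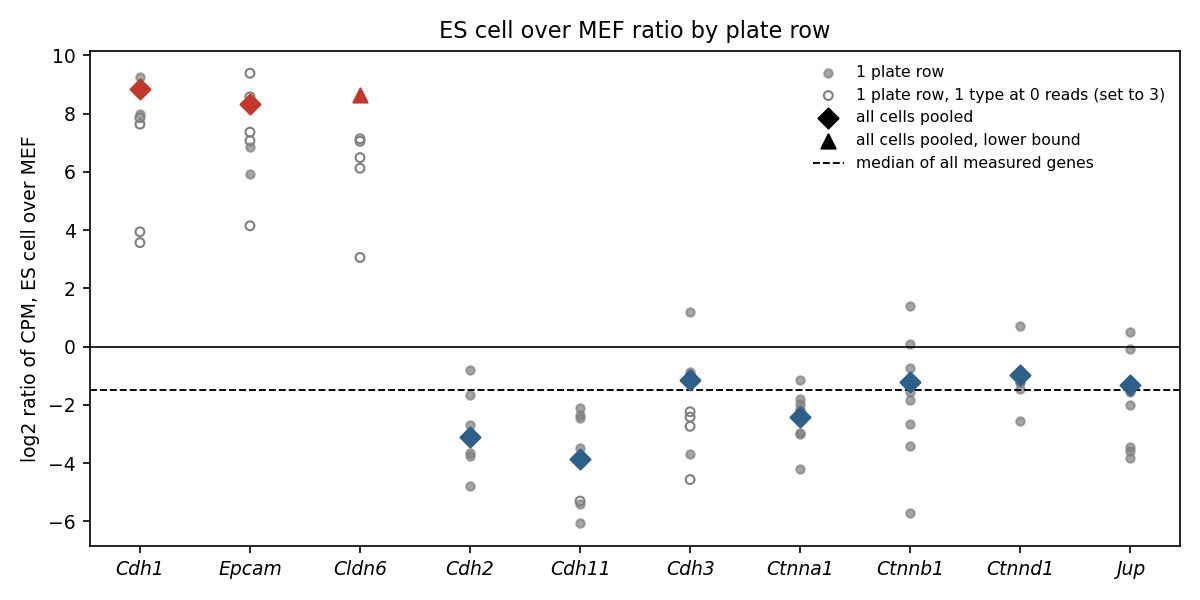
Log2 ratio of CPM, ES cell over MEF (vertical axis), for the 10 adhesion genes, pooled over all cells (diamonds, or a triangle for a lower bound) and in single plate rows (grey; open where 1 type had no read and was set to 3 reads). Cdh1, Epcam and Cldn6 lie above 8 when pooled, Cdh2 and Cdh11 lie below the dashed line of the median gene at −1.48, and the pooled values of Cdh3, Ctnnb1, Ctnnd1 and Jup lie above it, although they are below 0 by CPM.

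Cdh1, which encodes E-cadherin, was the most read cadherin in ES cells. In single ES cells it ranged from 0 to 924 CPM with a median of 0, and in single MEFs from 0 to 8.70 CPM with a median of 0. Reads of it were present in 18 of 45 ES cells (40%, interval 25.7 to 55.7) and in 4 of 44 MEFs (9.09%, 2.53 to 21.7), although MEFs had the deeper libraries. The groups overlapped at 0, and no MEF came near the upper ES cells.

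The highest Cdh1 levels were 924 CPM in ES cell replicate 18, 698 in replicate 38, 674 in replicate 19 and 665 in replicate 27. Replicate 33 held most reads, 321 or 25.4% of the ES cell total. The ES cells that had any Cdh1 read had a median of 106 CPM. Thinned to 20000 gene reads each, 14 of 42 ES cells and 1 of 44 MEFs had a Cdh1 read.

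Pooled Cdh1 was 144.8 CPM (137 to 153, from 1263 reads) in ES cells and 0.313 CPM (0.156 to 0.560, from 11 reads) in MEFs. The log2 ratio was 8.85, a 463-fold difference, or 10.33 relative to the median gene. Cdh1 was higher in ES cells in 7 of 8 plate rows, from 3.57 to 9.25 on the log2 scale, with an SD of 2.29. In 5 of these rows MEFs had no read and were set to 3 reads. In the other row, D, ES cells had 0 reads and MEFs 7. MEF replicate 76 held 5 of the 11 MEF reads, and without it the log2 ratio was 9.68.

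Epcam encodes a homophilic adhesion glycoprotein of simple epithelia that is also found on ES cells. It ranged from 0 to 1061 CPM per ES cell and from 0 to 13.3 CPM per MEF, with a median of 0 in both. A read was found in 14 of 45 ES cells (31.1%, 18.2 to 46.6), against 2 of 44 MEFs (4.55%, 0.555 to 15.5), and after thinning in 11 of 42 ES cells, against 0 of 44 MEFs. As for Cdh1, expression was high in a minority of ES cells and at or near 0 in MEFs.

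Epcam pooled to 128 CPM (121 to 136) in ES cells and 0.398 CPM (0.218 to 0.668) in MEFs, a log2 ratio of 8.33 or 322-fold. Relative to the median gene it was 9.81. ES cell replicate 10 held 362 of its 1119 ES cell reads, followed by replicates 47 (203 reads) and 38 (161 reads). MEF replicate 71 held 9 of the 14 MEF reads, and without it the log2 ratio was 9.79. ES cells were higher in 7 of 8 plate rows, and row E had no Epcam read in either type.

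Cldn6 encodes a claudin, a tight junction strand protein that marks early embryonic epithelium and pluripotent cells. It had reads in 11 of 45 ES cells, where it ranged up to 578 CPM with a median of 0. It had reads in 0 of 44 MEFs, which allows a share of up to 6.82% of cells with a read when the limit is set at 3 counts, and 8.04% at the upper end of the exact interval. Its 295 ES cell reads made 33.8 CPM (30.1 to 37.9), against 0 CPM in MEFs. With a floor of 3 reads over the MEFs, which is 0.0853 CPM, Cldn6 was at least 396-fold higher in ES cells. ES cell replicate 13 held 75 of these reads, and the pooled bound without it was 8.23 on the log2 scale, against 8.63 with it. After thinning, 6 of 42 ES cells had a Cldn6 read. Its pooled bound relative to the median gene was 10.11 on the log2 scale. Plate rows favoured ES cells in 5 of 8 (SD 1.68, with MEFs set to 3 reads), and 3 rows had no read in either type.

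**Figure D2:**
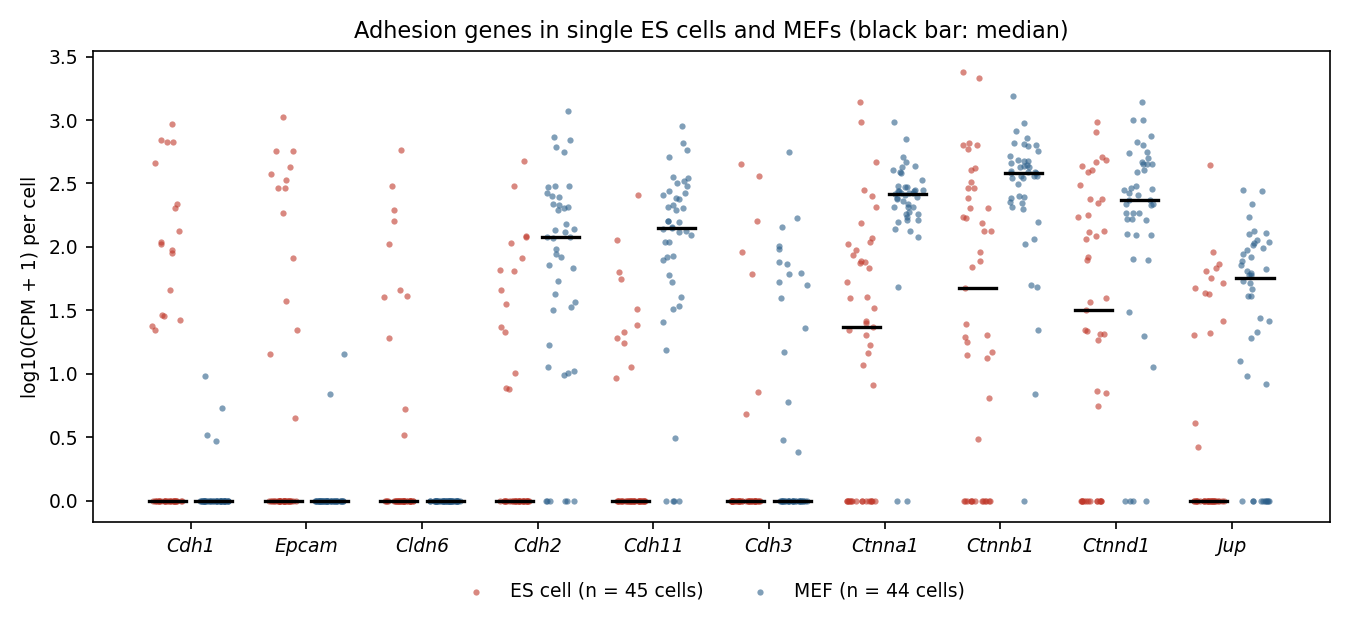
Level of each gene in single cells, as log10 of CPM + 1, with 45 ES cells (red, left of each pair) and 44 MEFs (blue, right); black bars are medians. Cdh1, Epcam and Cldn6 have a median of 0 in ES cells, and the highest single ES cell of each is at 924, 1061 and 578 CPM. Cdh2 and Cdh11 have medians of 118 and 141 CPM in MEFs and 0 in ES cells.

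The 3 genes higher in ES cells were not always read in the same cells. Cdh1 and Epcam were read together in 6 ES cells, Cdh1 alone of the pair in 12 and Epcam alone in 8. All 3 were read in 2 of 45 ES cells, at least 1 in 29 and none in 16. With equal depth of 20000 reads, all 3 were read in 1 of 42 ES cells, at least 1 in 23 and none in 19. In replicate 38, 196 Cdh1 reads stood beside 161 Epcam reads and in replicate 47, 133 beside 203, while replicate 10 had 362 Epcam reads and no Cdh1 read, and replicates 18, 19 and 27 had 82, 126 and 191 Cdh1 reads and no Epcam read. The rank correlation of Cdh1 with Epcam over 42 thinned ES cells was 0.14, too weak in such sparse counts to be read as a relation.

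Cdh2 encodes N-cadherin, the classical cadherin of mesenchyme, neurons and heart. Its level ran from 0 to 472 CPM per ES cell with a median of 0, and from 0 to 1186 CPM per MEF with a median of 118. It was read in 15 of 45 ES cells (33.3%), against 38 of 44 MEFs (86.4%), and after thinning in 9 of 42 ES cells, against 31 of 44 MEFs. Most MEFs were above most ES cells, and the ranges overlapped.

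Pooled Cdh2 was 19.8 CPM (17 to 23) in ES cells and 171.9 CPM (168 to 176) in MEFs. The log2 ratio was −3.12, so MEFs were 8.66-fold higher, with an SD of 1.25 over plate rows and MEFs higher in 8 of 8. Relative to the median gene it was −1.64. ES cell replicates 4 and 7 had the highest Cdh2 levels among ES cells, 472 and 299 CPM. Without replicates 4, 7 and 30 the log2 ratio was −3.40.

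Cdh11 encodes cadherin-11, a type II cadherin of mesenchyme and bone-forming cells. Its level ran from 0 to 256 CPM per ES cell with a median of 0, and from 0 to 895 CPM per MEF with a median of 141. Reads were seen in 11 of 45 ES cells (24.4%), against 40 of 44 MEFs (90.9%), and after thinning in 6 of 42 ES cells, against 30 of 44 MEFs. As for Cdh2, MEFs were mostly higher and the ranges overlapped.

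Pooled Cdh11 was 11.7 CPM (9.54 to 14.2) in ES cells and 171.0 CPM (167 to 175) in MEFs, a log2 ratio of −3.87, or 14.6-fold in favour of MEFs, with an SD of 1.55 over plate rows. MEFs were higher in 8 of 8 rows, and the ratio relative to the median gene was −2.39. ES cell replicate 3 held 37 of the 102 ES cell reads, and without it the log2 ratio was −4.50.

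The ES cell levels of Cdh2 and Cdh11 were small beside the MEF levels. They stood at 11.5% and 6.84% of the MEF CPM, next to 3.83% to 10.9% (median 5.49%) for the 7 fibroblast markers. Whether free RNA or other cells contributed to these ES cell reads was not tested. The 4 negative control wells had no read of either gene, in libraries of 236 to 4662 gene reads. With 12527 gene reads in these 4 wells together, few reads would be seen even at the MEF level. Pooled, the same wells held ES cell markers at 4470 CPM and fibroblast markers at 6785 CPM.

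Cdh3 encodes P-cadherin, a classical cadherin of placenta and of the basal layer of stratified epithelia. Single-cell levels ran from 0 to 448 CPM per ES cell and from 0 to 559 CPM per MEF, with a median of 0 in both. It was read in 7 of 45 ES cells, against 17 of 44 MEFs, and after thinning in 3 of 42 ES cells, against 12 of 44 MEFs. Its groups overlapped over nearly their whole range.

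Pooled Cdh3 was 14.8 CPM (12.4 to 17.6) in ES cells and 32.7 CPM (30.8 to 34.6) in MEFs. The log2 ratio of −1.14 was smaller than its SD of 1.80 over plate rows, and it was 0.34 relative to the median gene. It was −1.75 without ES cell replicate 41, which held 47 of 129 ES cell reads, and −0.82 without MEF replicate 73, which is under 2-fold. Without MEF replicate 57 it was −0.98, under 2-fold as well. In plate rows E to H alone, where ES cells had 1 read, it was −6.10.

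Read as shares of the 4 cadherins, the types differed in kind. Cdh1 made 75.8% (73.6 to 77.8) of the 1667 cadherin reads in ES cells and 0.0832% (0.0416 to 0.149) of the 13215 in MEFs. Cdh2 made 10.4% in ES cells and 45.7% in MEFs, Cdh11 made 6.12% in ES cells and 45.5% in MEFs, and Cdh3 made 7.74% in ES cells and 8.69% in MEFs. The Cdh1 share in ES cells was 77.6% without replicates 4, 7 and 30, and 69.99% without replicate 33. These shares are of reads within a cell type, so scaling between libraries does not enter them.

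The sum of the 4 cadherins was 191 CPM in ES cells and 376 CPM in MEFs, a log2 ratio of −0.98 that is above the median gene's −1.48. In bulk sums of this kind, fewer cells with a transcript and less of it per cell cannot be told apart. A read of at least 1 cadherin was found in 31 of 45 ES cells, against 43 of 44 MEFs, and after thinning in 25 of 42 ES cells, against 41 of 44 MEFs.

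Single cells could be assigned shares where they had at least 20 cadherin reads, which held for 16 of 45 ES cells, against 43 of 44 MEFs. In those ES cells the Cdh1 share had a median of 70.3% (0 to 100), exceeded 90% in 7 cells and 50% in 10, and was 0 in 4. In those MEFs it had a median of 0 and a highest value of 4.88%, in replicate 82, and was 0 in 39. ES cells were thus spread over the whole range of the Cdh1 share and MEFs were all at its lower end.

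Replicates 18, 19, 23, 33 and 38 were ES cells in which all cadherin reads, between 34 and 321 of them, came from Cdh1. The 4 ES cells with a Cdh1 share of 0 differed in what they had instead. Replicate 3 had 37 cadherin reads, all Cdh11, beside an ES marker sum of 7886 CPM and a fibroblast sum of 256 CPM. Replicate 41 had 35 Cdh2 and 47 Cdh3 reads beside an ES marker sum of 6566 CPM and a fibroblast sum of 771 CPM. Both had ES marker sums above the ES cell median of 6273 CPM and fibroblast sums under the lowest MEF, at 1229 CPM. Replicate 22 had 31 Cdh2 and 18 Cdh11 reads, with 2953 CPM of ES markers and 2297 CPM of fibroblast markers. Replicate 4 had 26 Cdh2, 5 Cdh3 and 1 Cdh11 reads, with 1090 CPM of ES markers and 8119 CPM of fibroblast markers, close to the MEF median of 8376 CPM. Whether a second cell or free RNA entered these wells was not tested.

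**Figure D3:**
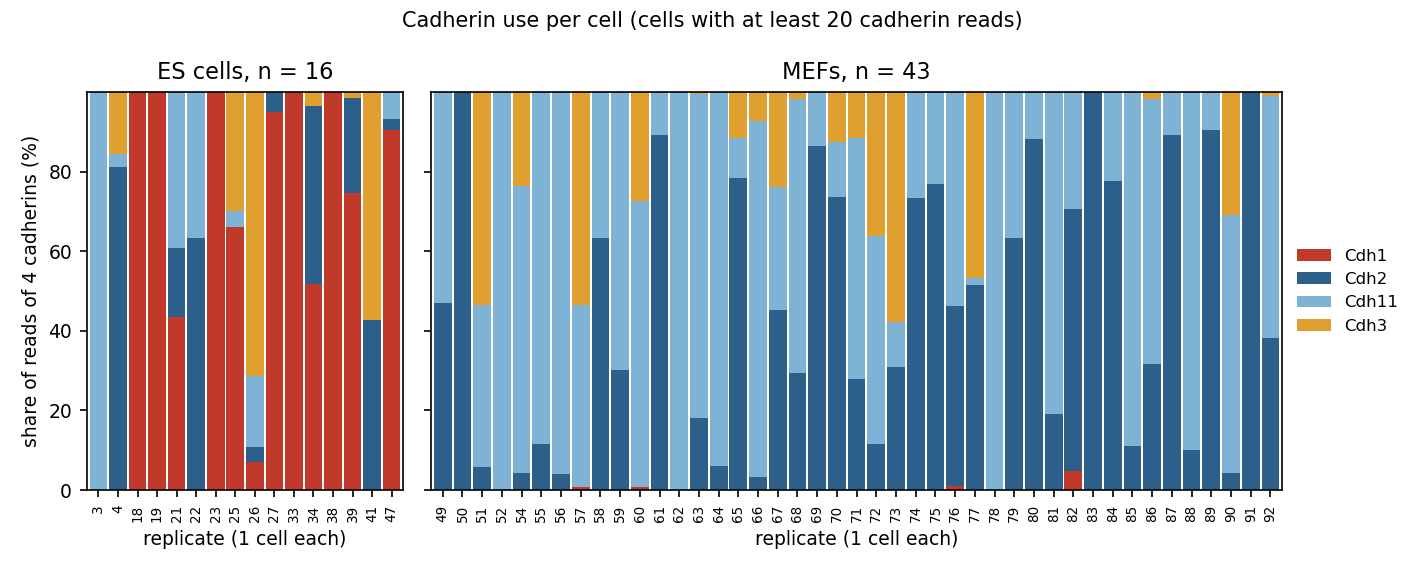
Share of reads (%) of the 4 cadherins in each cell with at least 20 cadherin reads, in 16 ES cells (left) and 43 MEFs (right), by replicate number. Cdh1 (red) exceeds 50% in 10 ES cells and stays at or under 4.88% in each MEF, where Cdh2 (dark blue), Cdh11 (light blue) and Cdh3 (yellow) divide the reads.

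MEFs varied among themselves in the balance of the mesenchymal cadherins. In the 43 MEFs with enough reads, the Cdh2 share had a median of 31.7% and exceeded 90% in 4 cells, and the Cdh11 share had a median of 52.2% and exceeded 90% in 5. Cdh11 made over 50% of cadherin reads in 22 MEFs, Cdh2 in 17 and Cdh3 in 3. Both Cdh2 and Cdh11 were read in 35 of 44 MEFs, and at least 1 of them in 43. At equal depth both were read in 20 and at least 1 in 41. Across 44 thinned MEFs the rank correlation of Cdh2 was −0.10 with Cdh11 and −0.33 with Cdh3, values too weak in sparse counts to be a finding. In ES cells Cdh1 and Cdh2 were read together in 7 cells, Cdh1 without Cdh2 in 11 and Cdh2 without Cdh1 in 8.

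The catenins, which couple cadherins to actin and to signalling, were read in both types. Their sum was 413 CPM in ES cells and 1076 CPM in MEFs, a log2 ratio of −1.38, next to −1.48 for the median gene. There were 2.16 catenin reads for each cadherin read in ES cells and 2.86 in MEFs.

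Ctnna1 encodes α-catenin, the actin-binding member. Single-cell levels ran from 0 to 1398 CPM per ES cell with a median of 22.3, and from 0 to 965 CPM per MEF with a median of 258. Reads occurred in 29 of 45 ES cells (64.4%), against 42 of 44 MEFs (95.5%), and after thinning in 17 of 42 ES cells, against 42 of 44 MEFs. Most MEFs stood above most ES cells, while the highest single cell was ES cell replicate 28, in which 37 reads gave 1398 CPM.

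Pooled Ctnna1 was 56.6 CPM (51.8 to 61.9) in ES cells and 303.5 CPM (298 to 309) in MEFs, a log2 ratio of −2.42, or 5.36-fold in favour of MEFs, with an SD of 0.93 over plate rows. MEFs were higher in 8 of 8 rows. Relative to the median gene the ratio was −0.94, under 2-fold. By the mean of per-cell CPM it was −1.35. Reads of Ctnna1 were also found in 2 negative control wells, 6 in one and 13 in the other. With the mean reads of a control well subtracted from the pooled sums, once for each well in them, the log2 ratio was −3.19.

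Ctnnb1 encodes β-catenin, which joins cadherins to α-catenin and is the transcriptional effector of canonical Wnt signalling. It ranged from 0 to 2380 CPM per ES cell with a median of 46.8, and from 0 to 1534 CPM per MEF with a median of 382. It was read in 32 of 45 ES cells, against 43 of 44 MEFs, and after thinning in 25 of 42 ES cells, against 41 of 44 MEFs. The ES cells spread more widely, with replicates 28 and 12 at 2380 and 2123 CPM and 13 cells at 0.

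Pooled Ctnnb1 was 165 CPM (157 to 174) in ES cells and 384 CPM (377 to 390) in MEFs. The log2 ratio of −1.22 was within its SD of 2.19 over plate rows, with MEFs higher in 6 of 8 rows. Relative to the median gene it was 0.26, and with median-of-ratios scaling 0.07, so its direction depended on scaling.

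Ctnnd1 encodes p120 catenin, which stabilises cadherins at the membrane. It ranged from 0 to 969 CPM per ES cell with a median of 30.7, and from 0 to 1395 CPM per MEF with a median of 234. Reads were found in 31 of 45 ES cells, against 40 of 44 MEFs, and after thinning in 24 of 42 ES cells, against 37 of 44 MEFs. Pooled levels were 163 CPM (155 to 172) in ES cells and 320 CPM (315 to 326) in MEFs. The log2 ratio of −0.97 was just under 2-fold, with an SD of 0.89 over rows, and it was 0.51 relative to the median gene and 0.31 with median-of-ratios scaling.

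Jup encodes γ-catenin, shared by adherens junctions and desmosomes. It ranged from 0 to 443 CPM per ES cell with a median of 0, and from 0 to 278 CPM per MEF with a median of 56.1. It was read in 15 of 45 ES cells, against 34 of 44 MEFs, and after thinning in 7 of 42 ES cells, against 26 of 44 MEFs. Pooled levels were 27.6 CPM (24.3 to 31.4) in ES cells and 68.3 CPM (65.6 to 71.1) in MEFs. The log2 ratio of −1.30 was within its SD of 1.62 over rows and was 0.17 relative to the median gene. ES cell replicate 35 held 104 of the 241 ES cell reads, and without it the log2 ratio was −2.08.

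Within the catenin pool β-catenin made 40.1% (38.4 to 41.7) of reads in ES cells and 35.7% (35.2 to 36.2) in MEFs. The α-catenin share was 13.7% in ES cells and 28.2% in MEFs, the p120 share was 39.5% in ES cells and 29.8% in MEFs, and the γ-catenin share was 6.69% in ES cells and 6.34% in MEFs. All of Ctnna1, Ctnnb1 and Ctnnd1 were read in 21 of 45 ES cells, against 37 of 44 MEFs, and after thinning in 9 of 42 ES cells, against 34 of 44 MEFs. A cell had reads of a median of 4 of the 10 genes in ES cells (0 to 9) and 6 in MEFs (2 to 8), and at equal depth of 3 in ES cells and 5 in MEFs. Of 18 ES cells with Cdh1, 13 also had Ctnnb1 and 14 had Ctnnd1.

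**Figure D4:**
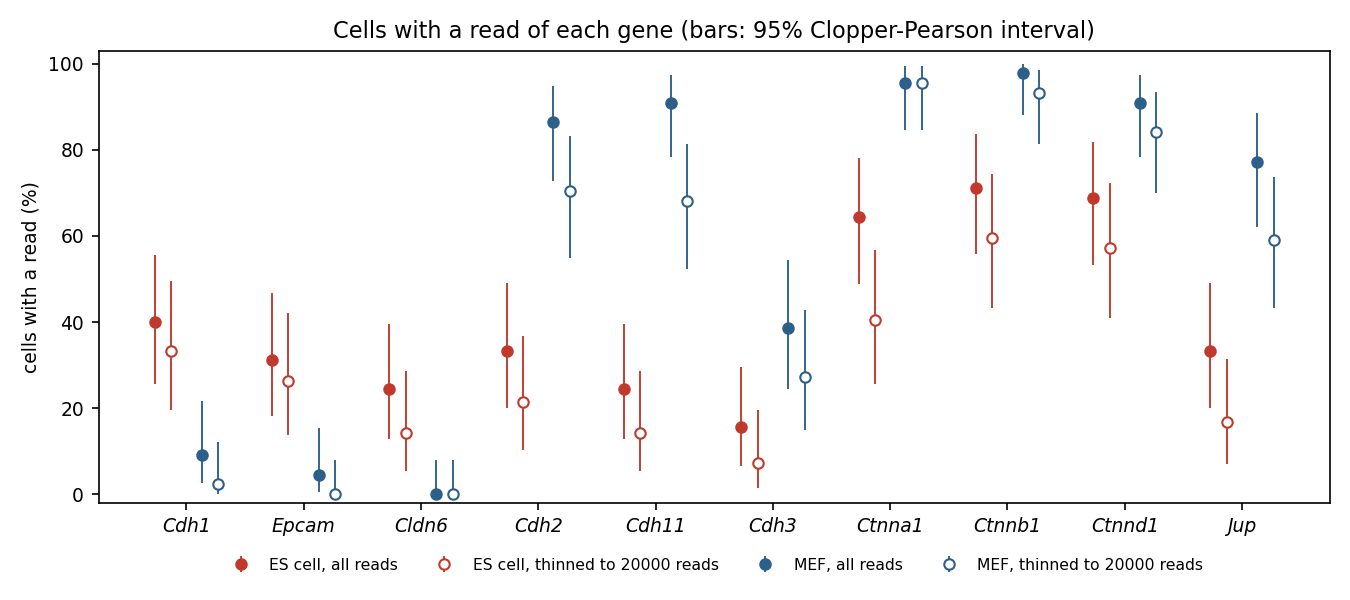
Share of cells (%) with at least 1 read of each gene in ES cells (red) and MEFs (blue), with all reads (filled) and after thinning each cell to 20000 gene reads (open); bars are exact Clopper-Pearson intervals at the 95% level. Cdh1 has a read in 40% of ES cells, against 9.09% of MEFs, Cdh11 in 24.4% of ES cells, against 90.9% of MEFs, and thinning lowers the MEF share of Cdh11 to 68.2%.

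Per kilobase of transcript, the order of levels differed between the types. In ES cells Epcam came first at 62.3 CPM per kb, followed by Ctnnb1 at 45.7, Cdh1 at 32.8, Ctnnd1 at 29.8, Cldn6 at 22.5 and Ctnna1 at 15.4 CPM per kb. Jup stood at 8.65 CPM per kb, and Cdh2, Cdh3 and Cdh11 ended the order at 4.27, 3.70 and 2.77. In MEFs Ctnnb1 came first at 106 CPM per kb, followed by Ctnna1 at 82.6, Ctnnd1 at 58.5, Cdh11 at 40.6 and Cdh2 at 37 CPM per kb. Jup at 21.4, Cdh3 at 8.17, Epcam at 0.193 and Cdh1 at 0.0709 CPM per kb followed, with Cldn6 at 0. By CPM without division by length, Ctnnb1 led in ES cells at 165, followed by Ctnnd1 at 163, Cdh1 at 145 and Epcam at 128 CPM. As STRT reads start at the 5′ end, their number need not grow with length, so the order depends on the scale chosen. Over the 8 plate rows the ranges of neighbours in the order overlapped for 9 of 9 pairs in ES cells and 8 of 9 in MEFs, the exception being Cdh3 above Epcam. Epcam ranged from 0 to 248 CPM per kb over the ES cell rows, and Ctnnb1 from 62 to 175 CPM per kb over the MEF rows.

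Genes most like each member were sought by rank correlation over thinned cells, among genes read in at least 25% of the cells of a type, and only values of at least 0.5 are given. For Cdh1 over 42 ES cells, Mybbp1a had 0.62, Bzw1 0.58 and Dppa4 0.52, among 1849 candidates. For Epcam, Ppp1r14b had 0.61 and Mphosph6 0.57. Over 44 MEFs and 5171 candidates, Cdh2 was most like Tmbim6 and Ndst1 (0.54 each), Cdh11 most like Zranb2 (0.51), and Ctnnd1 most like Actg1 (0.58) and Myl9 (0.57). The cells shared 1 library and the values are descriptions of the extremes of many comparisons.

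Other junction genes were set beside these 10 in lists, whose counts stand beside the shares of all measured genes given above, 15.4% in ES cells and 58.5% in MEFs by CPM and 33% and 33.3% relative to the median gene. Of 8 measured genes for repressors of E-cadherin transcription, 8 favoured MEFs by 2-fold or more, with a median log2 ratio of −3.77, and 7 remained so relative to the median gene. Snai1, which encodes the zinc-finger repressor SNAIL, stood at 1.03 CPM in ES cells and 53.9 CPM in MEFs, a log2 ratio of −5.71. The zinc-finger homeobox repressor gene Zeb1 stood at 6.54 CPM in ES cells and 115 CPM in MEFs (−4.14). Of the helix-loop-helix factors, Twist1 stood at 11 CPM in ES cells and 121 CPM in MEFs (−3.46), and Tcf4 at 42.1 CPM in ES cells and 244 CPM in MEFs (−2.53). Without the ES cell that held most of their reads, Snai1 was at −6.87 (replicate 4) and Tcf4 at −3.32 (replicate 22). The fibroblast markers moved in the same direction by a median of −4.19, and their part in this was not tested.

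Of 14 measured epithelial identity genes, 10 favoured ES cells by 2-fold or more and 4 (Krt7, Krt18, Krt19 and Grhl3) favoured MEFs, with a median log2 ratio of 4.94, where a gene with no read in 1 type enters at its bound. With at least 100 reads required, the counts were 5 in ES cells and 4 in MEFs, and many of the genes came from few cells. Rab25, a small GTPase of epithelial recycling endosomes, had 283 reads in 3 ES cells and 4 reads in 2 MEFs. Prss8, a membrane-anchored serine protease, had 157 reads in 3 ES cells and no MEF read, and Ovol2, a repressor that maintains epithelial state, had 111 reads in 2 ES cells and 0 in MEFs. Most of these reads came from 1 ES cell for each gene (replicates 42, 39 and 47), and without it the log2 ratios were 4.93 for Rab25 and at least 3.93 for Prss8 and 4.34 for Ovol2. Krt19, a keratin of simple epithelia, went the other way, with 1.83 CPM in ES cells and 16.9 CPM in MEFs, a log2 ratio of −3.20, or −4.77 without ES cell replicate 47.

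Tight junction genes were divided. By the same size, 8 of 14 measured favoured ES cells and 5 favoured MEFs, with a median of 2.67. Genes with no read in 1 type again entered at their bound. Some of the genes came from few cells, with Cldn9 read in 1 ES cell and Cldn3 and Cldn5 in 2 ES cells each. With at least 100 reads required, both counts were 5. Cldn4, a claudin of tight epithelia, stood at 29.7 CPM in ES cells and 1.59 CPM in MEFs (log2 ratio 4.22, or 4.96 without MEF replicate 74). The junctional adhesion molecules split, with Jam2 at 58.3 CPM in ES cells and 4.07 CPM in MEFs (3.84) and Jam3 with 3 reads in ES cells and 1182 in MEFs. Cgnl1, a cytoplasmic junction protein, had a log2 ratio of −2.65, or −4.19 without ES cell replicate 35.

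Gap junction genes were split by connexin. By the same size, 3 of 5 measured favoured ES cells and 2 favoured MEFs, with a median of 3.03. Gjb5 stood at 85.9 CPM in ES cells and 0.455 CPM in MEFs (7.56), and was read in 10 of 45 ES cells. Its log2 ratio was 6.79 without ES cell replicate 33 and 9.51 without MEF replicate 81. Gjc1 stood at 160 CPM in ES cells and 19.5 CPM in MEFs (3.03), although it was read in 8 ES cells and 16 MEFs. ES cell replicate 6 held 1189 of its 1395 ES cell reads, and without that cell the log2 ratio was 0.28, under 2-fold.

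The remaining cadherin superfamily and desmosome genes were mostly higher in MEFs, as most genes were by CPM. All 8 measured protocadherins and large cadherins favoured MEFs by 2-fold or more, also relative to the median gene, with a median log2 ratio of −3.60. Among them Fat1, a large cadherin that restrains growth, had −3.43 and Fat4 −4.61. Of 3 measured further classical and type II cadherins, 2 were higher in MEFs (Cdh10 and Cdh13), and Cdh4 was under 2-fold with 11 ES cell reads and 25 MEF reads, 22 of them in MEF replicate 90. MEF replicate 68 held 311 of the 361 Cdh13 reads in MEFs, and without it the log2 ratio was −2.08 or lower. Of 5 measured desmosome genes, 5 favoured MEFs to that extent by CPM and 4 relative to the median gene, with Perp at −3.82 and Dsp, the desmosomal plaque protein, at −2.99. Without ES cell replicate 22 Dsp was at −4.48, and without MEF replicate 63 at −2.05. The desmosome count also leans on single cells. Pkp2 was at −0.69, under 2-fold, without MEF replicate 87, and all 73 Pkp1 reads came from 1 MEF.

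Adherens junction adaptors and nectins stood near the median gene. By CPM, 2 of 16 measured favoured ES cells by 2-fold or more and 9 favoured MEFs, with a median of −1.10, and relative to the median gene 6 favoured ES cells and 3 MEFs. The actin-linked adaptors Vcl (−3.66) and Zyx (−4.35), which are shared with focal adhesions, were among the most MEF-biased, and the nectin Pvrl1 had 2 ES cell reads and 1432 MEF reads. Enah, an actin-elongation factor, went the other way at 97.2 CPM in ES cells and 24.9 CPM in MEFs (1.97). ES cell replicate 27 held 442 of its 848 ES cell reads, and without it the log2 ratio was 0.95, under 2-fold.

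Among 15 measured polarity genes 1 favoured ES cells by 2-fold or more and 8 favoured MEFs (median −1.33), and relative to the median gene 4 in ES cells and 5 in MEFs. The MEF counts stand near the 58.5% and 33.3% of all measured genes. The apical polarity gene Crb3 was that 1, with 283 reads in 10 ES cells and 6 reads in 3 MEFs, a log2 ratio of 7.57, or 6.92 without ES cell replicate 48 and 9.09 without MEF replicate 58. Genes of β-catenin destruction and TCF factors had 1 of 15 higher in ES cells and 9 in MEFs (median −1.75), or 3 in ES cells and 5 in MEFs relative to the median gene, with the MEF counts again near those shares. Among them Gsk3b, the kinase that marks β-catenin for destruction, had a log2 ratio of −3.26.

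Genes of cadherin processing and turnover had 0 of 9 higher in ES cells and 8 in MEFs (median −2.86), or 1 in ES cells and 5 in MEFs relative to the median gene. Adam10, the protease that sheds cadherin ectodomains, had −3.32, and Furin, which cleaves propeptides, −5.26, or −6.96 without ES cell replicate 45. The p120 partners and junctional GTPases had 0 of 5 higher in ES cells and 4 in MEFs (median −2.75), or 1 in ES cells and 3 in MEFs relative to the median gene. The GTPase genes Rhoa and Rac1, which control actin at junctions, had −2.75 and −2.77.

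**Figure D5:**
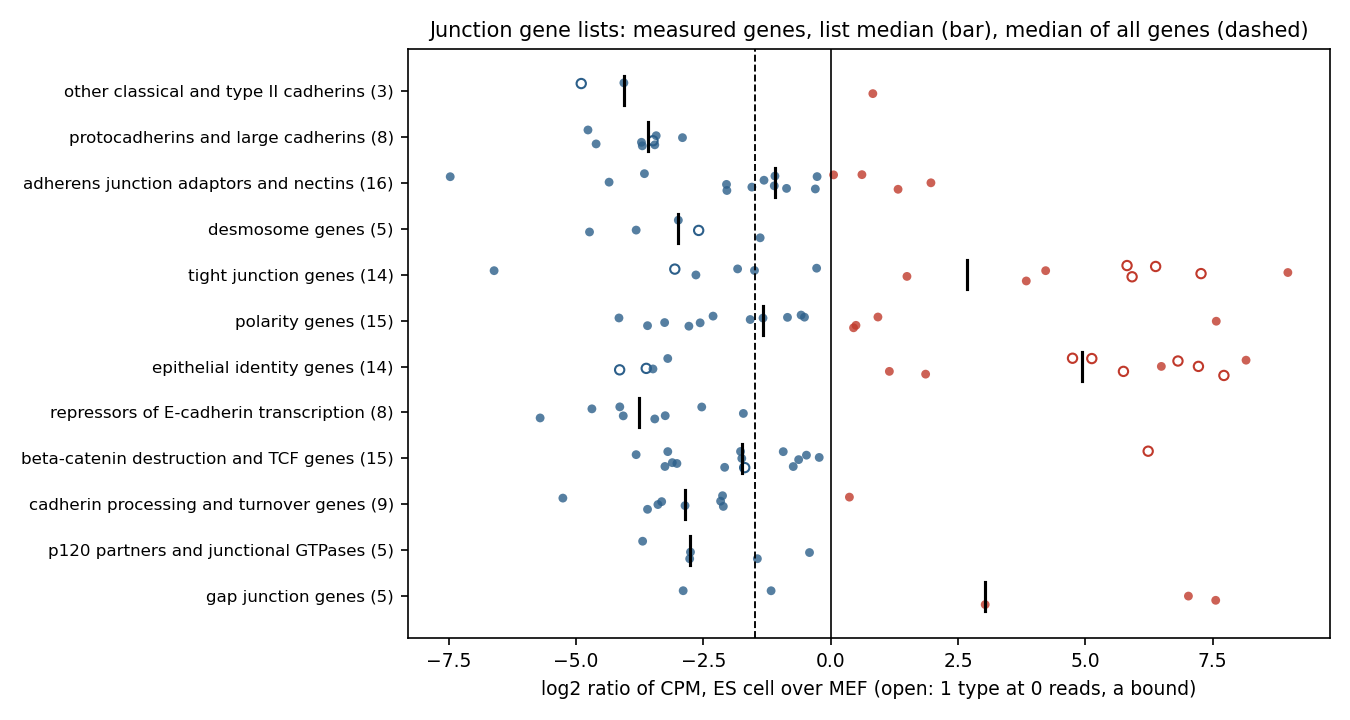
Log2 ratio of CPM, ES cell over MEF (horizontal axis), of the measured genes in 12 junction lists, with the number of genes in brackets, list medians as bars and the median of all genes as the dashed line at −1.48; open points are bounds from a type with no read. Epithelial identity, tight junction and gap junction lists have medians above 0 (4.94, 2.67 and 3.03). Repressors of E-cadherin transcription lie to the left of 0 throughout, as do the protocadherin, desmosome and p120 lists. Of all measured genes, 73.6% lie there.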

How the data were processed

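STRT libraries of 48 ES cells, 44 MEFs and 4 negative control wells were read as the deposited table of counts per gene and well, which the authors had not normalised. Per the file headers, a read that could map elsewhere still counts towards a gene's exons, and barcodes and added Gs were cut off first. The table's transcript length, deposited as another column, gave CPM per kb. The submitters' processing notes name Bowtie. Its version and the build and annotation behind the counts are not given in the sources used here. Wells under 10000 gene reads were left out, and repeat and spike-in rows stayed out of totals. Counts were summed per type and divided by total gene reads. For a sum of 0, a floor of 3 reads was used. Thinned cells were drawn to 20000 gene reads with a fixed seed, which left out 3 ES cells and 0 MEFs.

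With 1 culture assumed for each type, no test across replicates was possible, and changes were called at 2-fold. The pooled log2 ratio was tested on simulated counts, only for genes well read in MEFs and with smaller changes than those of Cdh1, Epcam and Cldn6. That test does not cover genes with few or no MEF reads. Members and lists were chosen with earlier results of these data known. Named were all 10 members, 4 genes a list with the largest absolute log2 ratio with 10 CPM added, and the likeness genes; 1 list gene is not reported here. Other genes, such as Cdh5, Pecam1 and Tie1, were named after their values were seen. Alternatives covered scaling, pseudocount, thinning, well minimum, control subtraction, plate rows and left-out wells. Python 3.11.15, numpy 2.4.6, pandas 2.3.3 and scipy 1.17.1 were used.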

Additional observations from a re-analysis of the deposited data

Results flagged for a closer look

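Ctnnb1 had 8 reads in 1 negative control well, replicate 95 with 3273 gene reads, and 0 in the other 3, so that well stood apart from the other control wells. With 0 reads in the other 3, any count in that well would stand apart. The flag therefore has no known chance rate, and no conclusion is drawn from it. Subtracting the control reads left the number of genes at least 2-fold higher at 3 in ES cells and 6 in MEFs, and moved the Ctnna1 log2 ratio to −3.19, against −2.42 without it.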

How the results depend on the processing

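Cdh1, Epcam and Cldn6 were the 3 genes at least 2-fold higher in ES cells under each alternative. The number higher in MEFs, 6 by total gene reads, was 3 with median-of-ratios scaling, 3 with totals without ribosomal protein genes and 2 relative to the median gene. Leaving out each well in turn, chosen after seeing the data, it ranged from 5 (without MEF replicate 57 or 73) to 7. Cdh3 became 0.14 and Ctnnb1 0.068 with median-of-ratios scaling, and Cdh3 0.34, Ctnnb1 0.26 and Jup 0.17 relative to the median gene. Ctnnd1, under 2-fold at −0.97, became 0.31 and 0.51 under the same 2 settings, so 7 values over 4 genes changed sign. These scalings put the median gene at −0.20 and, by construction, at 0, against −1.48 by totals and −6.04 by spike-in.

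The Cdh1 share of cadherin reads in ES cells, 75.8% in the sum, was 58% as a mean of cells, 63.5% thinned, 79.5% in rows E to H and 88% of Cdh1 and Cdh2 alone, and ranged from 69.99% to 79.7% without single wells. In MEFs, 0.0832% in the sum was 0.174%, 0.266%, 0% and 0.182% under the same alternatives, and 0.0473% to 0.0903% without single wells. On thinned reads the log2 ratios of Cdh1, Epcam and Cldn6 were 6.62, 5.05 and 3.18. Log2 ratios of single genes were held to their SD over plate rows and shares of cells to their exact interval. List counts were held to a fixed factor. By these limits 157 values stayed the same, 46 moved, which includes Ctnnd1 in both settings above, and 5 log2 ratios of at least 2-fold reversed. Row SDs reached 2.29, so a ratio counted as the same could still fall under 2-fold. With totals without ribosomal protein genes, Cdh3 (−0.50), Ctnnb1 (−0.57) and Jup (−0.66) did so. Counts over the 10 genes and the Cdh1 shares were tallied apart, by the factor and the exact interval. Of these, 34 stayed the same and 13 moved. The causes were not tested. No paired analysis was possible because the types share no replicate numbers. Depth limits ES cell detection, and the labels name no separate cultures of a type, which limits all comparisons.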
